A study of Homo sapiens with 12 samples.

Results

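IGF2BP1, IGF2BP2 and IGF2BP3, LIN28A and LIN28B, and HMGA1 and HMGA2 were followed by gene symbol in poly-A RNA-seq of Hep-G2 and BE(2)-C cells, 7 genes of the 58174 listed for each line. Hep-G2 is a liver cancer line of hepatoblast character, and BE(2)-C is a neuroblastoma line. Cells received a control siRNA (siC) or a pool of siRNAs directed against IGF2BP1 (siI1), and RNA was taken 72 h later. Each of the 4 groups had 3 libraries, 12 in all, described as biological replicates in the study's methods. The methods also give BE(2)-C a higher siRNA concentration than Hep-G2, and the labels give the lines different media. The libraries held between 12852988 and 15721210 reads on genes.

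The IGF2BP proteins bind mRNAs in the cytoplasm and can shield them from decay and from microRNAs. LIN28A and LIN28B block the maturation of let-7 microRNAs, and HMGA1 and HMGA2 are chromatin proteins that bind AT-rich DNA. Most are abundant in embryonic tissue, low in most adult tissue and found again in tumours, while IGF2BP2 is also widely present in adults, and several of their mRNAs are known let-7 targets. An siRNA against IGF2BP1 asks which of these mRNAs change when its own mRNA is lowered.

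The lines carried their labelled identity. All 9 hepatocyte or hepatoblast markers reached at least 1 FPKM (fragments per gene length and library size) in every Hep-G2 library, led by ALB. Their sum in BE(2)-C stayed at or below 0.237 FPKM. All 9 sympathoadrenal markers reached at least 1 FPKM in every BE(2)-C library, led by PHOX2A, against a sum of at most 0.241 FPKM in Hep-G2.

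The let-7 microRNAs are shown first because their seed, bases 2 to 8, is the part that pairs with target mRNAs. The RefSeq table (GRCh38.p14) held 9 mature sequences of the family, miR-98 included, and all 9 shared 1 seed, given in capitals:
hsa-let-7a-5p: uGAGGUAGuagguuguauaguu
hsa-let-7d-5p: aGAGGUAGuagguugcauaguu
hsa-let-7g-5p: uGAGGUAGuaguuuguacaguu
hsa-miR-98-5p: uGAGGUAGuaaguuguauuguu

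The complement of this seed in an mRNA is CTACCTC, 7 letters searched on the mRNA strand alone. Of the longest annotated 3'UTRs of 19614 protein-coding genes (GENCODE 44, hg38), 10.4% held it, and 12 genes held at least 4. IGF2BP1 (chr17:48997385-49056145, plus strand) had 4 matches in a 3'UTR of 6701 nt. Of the 386 genes with a 3'UTR within 10% of that length, 37.3% held a match and 0.52% at least 4, IGF2BP1 included. LIN28B (chr6:104957107-105083332, plus strand) had 4 matches in 4549 nt, where 24.9% of 810 genes of similar length held any. At least 4 were held by 0.25% of these genes, LIN28B included. The 1696 nt that follow the longest coding sequence of LIN28B held 1. The matches are printed in capitals with their flanks, each 22 bases long, on the plus strand of hg38 and inside the 3'UTR:
IGF2BP1 match 1 on chr17, 49051062 to 49051083: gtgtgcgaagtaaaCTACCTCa
IGF2BP1 match 2 on chr17, 49053699 to 49053720: agcagtgctagtaaCTACCTCa
IGF2BP1 match 3 on chr17, 49054353 to 49054374: tataaatggattaaCTACCTCa
IGF2BP1 match 4 on chr17, 49054998 to 49055019: cacttttgttttatCTACCTCt
LIN28B match 1 on chr6, 105078813 to 105078834: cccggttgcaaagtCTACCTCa
LIN28B match 2 on chr6, 105081240 to 105081261: actgatgatagtaaCTACCTCt
LIN28B match 3 on chr6, 105081422 to 105081443: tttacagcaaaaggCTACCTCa
LIN28B match 4 on chr6, 105082861 to 105082882: aatgatggtgttgaCTACCTCt

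IGF2BP2, IGF2BP3, LIN28A and HMGA1 had 1 match each. The share of genes with 3'UTRs of similar length that held a match was 13.3% for IGF2BP2, 13.8% for IGF2BP3, 16.5% for LIN28A and 8.25% for HMGA1. HMGA2 had 0 matches in its longest annotated 3'UTR of 7421 nt, and 0 in the 533 nt that follow its longest coding sequence. Both belong to alternative transcripts that end elsewhere. A further count, chosen after these zeros were seen, took the MANE Select transcript of every gene, the one that Ensembl and RefSeq hold in common. For HMGA2 (chr12:65824483-65966291, plus strand) its 3'UTR of 2999 nt held 4 matches. Of the 1080 genes of similar length in that set, 15.1% held any and 0.093% at least 4, HMGA2 included:
HMGA2 match 1 on chr12, 65963299 to 65963320: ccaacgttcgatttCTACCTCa
HMGA2 match 2 on chr12, 65964534 to 65964555: cccactactcaataCTACCTCt
HMGA2 match 3 on chr12, 65964946 to 65964967: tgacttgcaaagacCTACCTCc
HMGA2 match 4 on chr12, 65965799 to 65965820: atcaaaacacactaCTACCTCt

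The other 6 genes had equal counts in the longest 3'UTR and in the MANE Select 3'UTR. A match is a run of letters, and let-7 binding was not measured in these libraries.

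**Figure D1:**
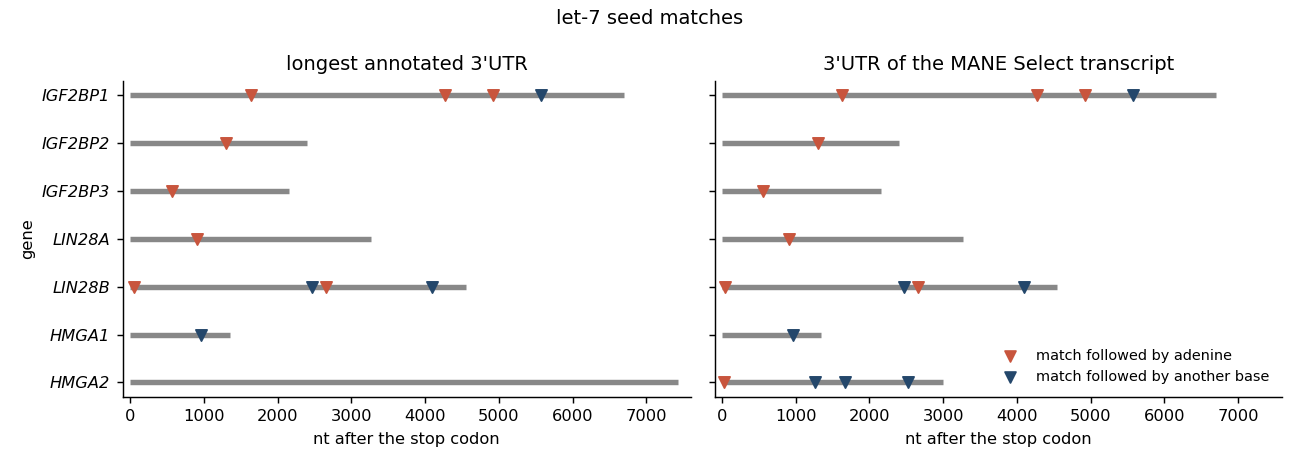
Matches to the let-7 seed complement along the 3'UTR of each gene, with the position in nt after the stop codon on the x axis; grey bars give the 3'UTR, red triangles matches followed by adenine and blue triangles other matches. HMGA2 has 0 matches in the longest annotated 3'UTR (left) and 4 in the MANE Select 3'UTR (right), while the other 6 genes have the same counts in both.

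IGF2BP1, the siRNA target, was read at 48.5, 46.6 and 50.8 FPKM in the Hep-G2 siC libraries and at 12.6, 10.7 and 10.7 FPKM in the siI1 libraries. BE(2)-C libraries gave 21.3, 20.6 and 21.6 FPKM with siC and at 4.85, 4.75 and 4.87 FPKM with siI1. Every siI1 library lay below every siC library of its line, as the labels require. With siI1, 23.3% of the siC mean was left in Hep-G2, against 22.8% for BE(2)-C. Hep-G2 gave a log2 fold change of -2.10 (SE 0.079, adjusted p = 7.8e-06 from limma), and BE(2)-C one of -2.11 (SE 0.048, adjusted p = 1.5e-05 from limma). Fold changes here are those of FPKM + 0.1, which understates the change of genes at low levels. The difference of the effects, Hep-G2 minus BE(2)-C, was 0.02 with a 95% interval of -0.19 to 0.22. IGF2BP1 ranked 23 of 18656 tested genes from the most lowered in BE(2)-C and 232 of 19436 in Hep-G2.

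In Hep-G2, 6 of the 7 genes passed the filter on low values, and 4 (66.7%) were lower with siI1 at an adjusted p under 0.05, among them the siRNA target itself. Over all tested genes of that line 23.0% were lower and 21.9% higher, and 0 of the 6 were higher. For BE(2)-C, 4 of the 7 were tested. There 2 were lower (the target and HMGA1) and 1 was higher, against 14.8% lower and 13.3% higher over all tested genes. Of the 4 genes tested in both lines, 3 (75%) differed in effect between them, where 40.2% of the 15362 genes tested in both and 49.9% of the protein-coding ones did. Restricted to protein-coding genes, the Hep-G2 shares were 30.5% lower and 25.3% higher. Those of BE(2)-C were 19.9% and 15.5%. The 7 genes include the siRNA target and were chosen with results known, so nothing is read from their counts alone. With 3 libraries a group, the smallest two-sided p of an exact permutation is 0.1, and calls therefore come from limma's fit to all genes.

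**Figure D2:**
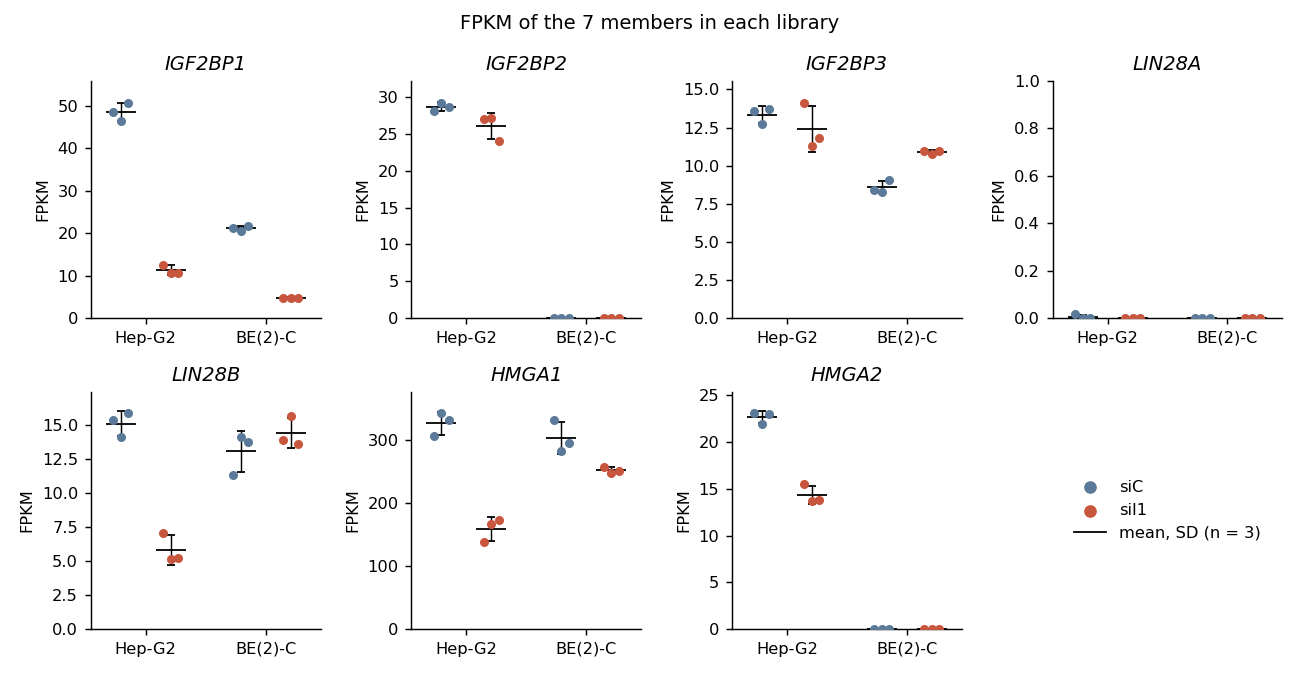
FPKM of each of the 7 genes (y axis, from 0, a scale for each gene) in the siC (blue) and siI1 (red) libraries of both lines; points are libraries, lines the mean and bars the SD of 3 libraries. IGF2BP1 falls in both lines, LIN28B separates the groups in Hep-G2 and overlaps in BE(2)-C, and IGF2BP2 and HMGA2 sit at or near 0 in BE(2)-C.

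The intervals of both paralogs lay far above the change of the target. IGF2BP2, which also binds mRNAs and is the paralog most often kept in adult tissue, was read at 28.1, 29.2 and 28.7 FPKM in Hep-G2 siC and at 27.0, 27.1 and 24.1 FPKM in siI1. The groups did not overlap, but the log2 fold change of -0.14 (95% interval -0.29 to 0.01) did not pass the test (adjusted p = 0.11 from limma). With each library scaled to an equal sum of FPKM it was -0.31 and passed (adjusted p = 0.017 from limma), while the median of all tested genes moved to -0.15. Median centring gave -0.048 (adjusted p = 0.56 from limma), and leaving out replicate 3 of siI1 gave -0.084. IGF2BP2 in BE(2)-C had at most 3 reads in any library and was not tested.

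IGF2BP3 was read at 13.6, 12.7 and 13.7 FPKM in Hep-G2 siC and at 14.1, 11.3 and 11.8 FPKM in siI1. The groups overlapped, with replicate 1 of siI1 above all siC libraries, and the log2 fold change was -0.11 (95% interval -0.33 to 0.11, adjusted p = 0.38 from limma). Without that library it was -0.21 and passed the test (adjusted p = 0.024 from limma), and it ran from -0.27 to -0.017 over all alternatives. The BE(2)-C values were 8.41, 8.30 and 9.04 FPKM with siC and at 10.99, 10.78 and 10.96 FPKM with siI1. All 3 siI1 libraries lay above all siC libraries, and the gene rose by a log2 fold change of 0.34 (SE 0.054, adjusted p = 0.0042 from limma). The effects differed between the lines by -0.45 (SE 0.11, adjusted p = 0.0068 from limma).

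Taken as a family, the 3 IGF2BP mRNAs summed to 90.6 ± 2.39 FPKM (SD, n = 3) in Hep-G2 siC and to 49.8 ± 3.66 FPKM in siI1. The BE(2)-C sums were 29.8 ± 0.849 FPKM and 15.8 ± 0.199 FPKM. The sum with siI1 was thus 54.9% of that with siC for Hep-G2 and 52.9% for BE(2)-C. IGF2BP1 made up 53.6% of the sum in Hep-G2 siC and 22.7% in siI1, where IGF2BP2 was at 52.4%. The share of IGF2BP1 in BE(2)-C went from 71.1% to 30.6%, and IGF2BP3 held 69.2% with siI1. The leading paralog with siI1 was IGF2BP2 in every Hep-G2 library and IGF2BP3 in every BE(2)-C library.

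These sums and shares depend on the length by which FPKM divides, the summed exons of all transcripts. For IGF2BP3 that is 8511 nt, where its MANE Select transcript has 4274 nt, and for IGF2BP1 9109 and 8796 nt. Rescaled to the MANE Select length, the BE(2)-C sum with siI1 was 68.5% of that with siC, and that of Hep-G2 was 60.1%. The share of IGF2BP1 then went from 56.2% to 18.7% in BE(2)-C and from 46.4% to 17.95% in Hep-G2. The leading paralogs stayed the same in every library. Which transcripts the reads came from was not tested.

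**Figure D3:**
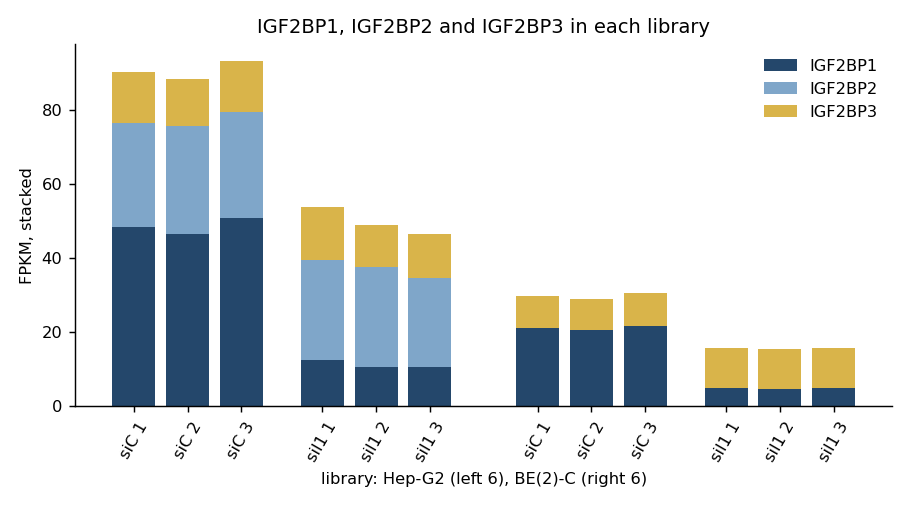
FPKM of IGF2BP1, IGF2BP2 and IGF2BP3 stacked for each of the 12 libraries (y axis from 0), Hep-G2 on the left and BE(2)-C on the right. The stack falls from about 90.6 to 49.8 FPKM in Hep-G2 and from 29.8 to 15.8 FPKM in BE(2)-C, and IGF2BP2 is not visible in BE(2)-C.

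Of the 4 genes tested in both lines, LIN28B differed most between them. In Hep-G2 it was read at 15.3, 14.1 and 15.8 FPKM with siC and at 7.06, 5.15 and 5.22 FPKM with siI1. Each siI1 library was below each siC library, with replicate 1 of siI1 the highest of its group. The mean with siI1 was 38.5% of the siC mean, and the log2 fold change was -1.38 (SE 0.13, adjusted p = 0.00022 from limma). BE(2)-C had 11.3, 14.1 and 13.8 FPKM with siC and at 13.9, 15.6 and 13.6 FPKM with siI1. Here the groups overlapped, and the log2 fold change of 0.14 (95% interval -0.09 to 0.37) did not pass the test (adjusted p = 0.33 from limma). It was 0.043 without replicate 1 of siC and 0.080 without replicate 2 of siI1. The effects differed by -1.52 (SE 0.17, adjusted p = 4.9e-05 from limma). The cell line, its table, the siRNA concentration and the medium cannot be told apart in this difference. With siC, LIN28B stood above 82.9% of the tested genes of Hep-G2 and 81.1% of those of BE(2)-C.

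LIN28A, the paralog found mainly in pluripotent cells, had 1 read in 1 Hep-G2 library and was listed at 0 in the other 5 and in all 6 of BE(2)-C. The 37 mitochondrial genes, which every cell uses, were also listed at 0 throughout, so a 0 in these tables is given only as listed. The row LIN28B-AS1, named for an antisense transcript, held 9 to 20 reads in each Hep-G2 library and 1 to 19 in each BE(2)-C library. Its log2 fold changes of 0.51 and 0.98 did not pass the test (adjusted p = 0.14 and 0.13 from limma). With no trend that of Hep-G2 passed (adjusted p = 0.047 from limma). The values ran from 0.17 to 0.64 in Hep-G2 and from 0.24 to 1.61 in BE(2)-C over the alternatives, most by the pseudocount. The libraries were strand-specific, but the strand setting of the counting was not given in the sources used here, so reads of a gene and its antisense partner may be mixed.

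HMGA1 had the highest level of the 7 genes in both lines, above 99.7% of the genes tested in Hep-G2 and 99.3% of those tested in BE(2)-C. In Hep-G2 it was read at 306.3, 342.1 and 331.0 FPKM with siC and at 137.6, 167.0 and 173.2 FPKM with siI1. The groups lay far apart, with a mean of 48.8% left and a log2 fold change of -1.04 (SE 0.10, adjusted p = 0.00026 from limma). The same gene in BE(2)-C was read at 331.9, 282.6 and 295.6 FPKM with siC and at 257.6, 247.2 and 250.6 FPKM with siI1. The groups again did not overlap, but the fall was smaller, with 83.0% left and a log2 fold change of -0.27 (SE 0.066, adjusted p = 0.025 from limma). This call was lost without any 1 of the 3 siI1 libraries (adjusted p from 0.055 to 0.087 from limma). The effects differed by -0.78 (SE 0.13, adjusted p = 0.00062 from limma).

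HMGA1 has processed pseudogenes, copies of its mRNA in the genome with which reads can be shared, among them HMGA1P8. HMGA1P8 went from at most 1.46 FPKM with siC to at least 2.64 FPKM with siI1 in BE(2)-C, on 1 to 17 reads per library (adjusted p = 0.023 from limma). This call was lost with no trend, at a threshold of 0.01, without replicate 1 of siC and without any 1 of the siI1 libraries (adjusted p up to 0.074 from limma). HMGA1P4, which the tables type as antisense, was listed at 0 in Hep-G2 siC and at 0.21 to 0.44 FPKM in siI1, on at most 2 reads. It passed the filter through the siI1 libraries alone, so its test is not used. Both rows are uncertain on so few reads, and HMGA1 itself had at least 4331 reads in each library.

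HMGA2, the embryonic member of the pair, was read at 23.1, 21.9 and 23.0 FPKM in Hep-G2 siC and at 15.5, 13.7 and 13.9 FPKM in siI1. Every siI1 library was lower, with 63.3% of the mean left and a log2 fold change of -0.66 (SE 0.063, adjusted p = 0.00025 from limma). BE(2)-C listed it at 0 in each of the 6 libraries, so its effect there and the difference between the lines could not be tested. RPSAP52, a pseudogene transcribed across HMGA2, had at most 3 reads in Hep-G2 and was listed at 0 in BE(2)-C.

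**Figure D4:**
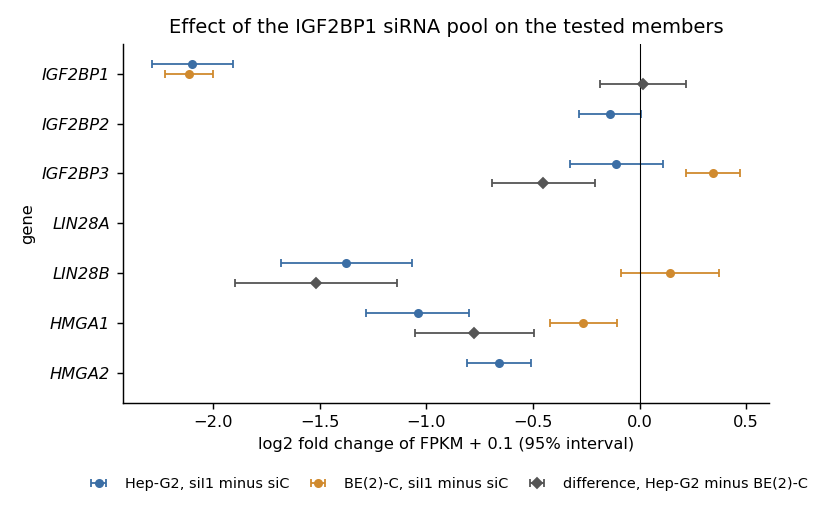
Log2 fold change (x axis, siI1 against siC, with 95% intervals from limma, 3 libraries per group) of each tested gene in Hep-G2 (blue) and BE(2)-C (orange), and the difference of the effects (grey diamonds). For LIN28B the point for Hep-G2 lies at -1.38 and that for BE(2)-C at 0.14, whereas those of IGF2BP1 lie at -2.10 and -2.11.

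By level, the Hep-G2 siC order was HMGA1, IGF2BP1, IGF2BP2, HMGA2, LIN28B and IGF2BP3, then LIN28A. The BE(2)-C order was HMGA1, IGF2BP1, LIN28B and IGF2BP3, then the genes at or near 0. Neighbours in each order down to IGF2BP3 did not overlap between libraries, but the order rests on the length used. The summed exons of HMGA2 have 15403 nt where its MANE Select transcript has 4117 nt. Per length of that transcript, the Hep-G2 order was HMGA1, HMGA2, IGF2BP1, IGF2BP2, IGF2BP3 and LIN28B. That of BE(2)-C was HMGA1, IGF2BP1, IGF2BP3 and LIN28B. Levels of different genes are therefore uncertain to this extent, whereas fold changes of a gene do not involve its length apart from the pseudocount and the filter. The tables of the lines were scaled separately, so levels across them were not tested.

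Among the genes most like a member in its deviation from the siC mean over 12 libraries, those of LIN28B were TOP1, FNIP2, LARP4, FAM135A and HSPA13. Their root mean square difference from LIN28B was 0.10 to 0.11 on the log2 scale, out of 11083 protein-coding genes. TOP1, which relaxes supercoiled DNA, gave log2 fold changes of -1.36 for Hep-G2 and 0.25 for BE(2)-C. For IGF2BP1 the closest were CD9, NES, MT2A, BRI3BP and B4GALNT1, at 0.33 to 0.45. NES, an intermediate filament protein of progenitor cells, had -1.60 and -1.69. HMGA2 was not tested in both lines and has no such comparison.

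Mature let-7 has no poly-A tail and is not measured by these libraries. Of the 13 rows named for let-7 genes and their hosts, 11 held at most 3 reads in every Hep-G2 library and 10 in every BE(2)-C library. Only 2 rows in Hep-G2 and 4 in BE(2)-C could be tested, and 0 of these passed at 0.05. MIRLET7BHG, a host transcript, was read at 1.02 to 1.24 FPKM with siC and 1.04 to 1.136 FPKM with siI1 in BE(2)-C. In Hep-G2 it had at most 4 reads.

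Of 22 let-7 processing and silencing factors, all tested in both lines, 6 (27.3%) were lower and 0 higher in Hep-G2. This lower share lies between the 23.0% of all tested genes and the 30.5% of protein-coding ones, to which the list belongs, and 21.9% and 25.3% of these were higher. For BE(2)-C, 1 (4.55%) was lower and 5 (22.7%) were higher, beside 14.8% and 13.3% of all tested genes and 19.9% and 15.5% of protein-coding ones. Median centring of the libraries gave 3 higher in Hep-G2, where 26.1% of all tested genes were higher, leaving out replicate 1 of siI1 gave 2, and a fit with no trend gave 1. In BE(2)-C, 4 were lower with a filter at 1 FPKM, which left 22.9% of all tested genes lower, and 2 with no trend, with equal sums or without replicate 1 of siI1. The higher count there was 3 without replicate 2 or 3 of siI1 and 2 at a threshold of 0.01. The list's median log2 fold change was -0.11 for Hep-G2, beside 0.01 over all tested genes and -0.04 over protein-coding ones. For BE(2)-C it was 0.11, beside 0.02 and -0.01. The 6 falls in Hep-G2 ran from -0.90 to -0.32 on the log2 scale. Among them, TRIM25, an RNA-binding ubiquitin ligase, fell from 26.3 to 16.2 FPKM in Hep-G2 (log2 -0.69, SE 0.072), and AGO1, a small RNA carrier, from 4.09 to 2.74 FPKM (log2 -0.56, SE 0.096). In BE(2)-C, TNRC6C rose from 2.41 to 4.67 FPKM (log2 0.93, SE 0.074), as did DICER1 (log2 0.39) and XPO5 (log2 0.35), the nuclease and exporter of microRNA precursors. KHSRP, which aids let-7 maturation, fell in BE(2)-C (log2 -0.33, SE 0.051) and was also among the 6 falls in Hep-G2 (log2 -0.32).

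Of 25 other mRNAs described as let-7 targets, 22 were tested in each line. In Hep-G2, 9 (40.9%) were lower and 5 (22.7%) higher, beside 23.0% and 21.9% of all tested genes and 30.5% and 25.3% of protein-coding ones. The median was -0.21, beside 0.01 and -0.04. For BE(2)-C, 6 (27.3%) were lower and 4 (18.2%) higher, beside 14.8% and 13.3% of all tested genes and 19.9% and 15.5% of protein-coding ones. The median there was 0.07, beside 0.02 and -0.01. The higher count there was 2 without replicate 1 or 2 of siI1, with no trend or at a threshold of 0.01. RRM2, a subunit of the enzyme that makes deoxynucleotides, fell in both lines, from 27.5 to 12.4 FPKM and from 81.2 to 52.9 FPKM. E2F2, a cell cycle transcription factor, fell in both as well (log2 -1.05 and -0.91, the first -0.58 with a pseudocount of 1). THBS1 rose in Hep-G2 (log2 0.96), NAP1L1 in both lines (log2 0.39 and 0.46) and IGF1R in BE(2)-C (log2 0.42). The untested genes were MYCN, IRS2 and IL6 in Hep-G2 and CCND2, THBS1 and IL6 in BE(2)-C.

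Beyond the lists, tested genes outside the 7 were grouped by matches in their longest 3'UTR. The median log2 fold change of Hep-G2 was -0.03 for 11241 genes with 0 matches, -0.13 for 1299 with 1 and -0.20 for 183 with at least 2. That of BE(2)-C was -0.02 for 11038 genes, 0.0023 for 1283 and 0.09 for 192. The 3'UTRs lengthen along these groups, from a median of 1255 to 4943 nt in Hep-G2, and the part of length was not tested.

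Of 17 mRNAs described as bound or stabilised by IGF2BP proteins, 12 were tested in Hep-G2, and 15 were tested in BE(2)-C. In Hep-G2, 8 (66.7%) were lower and 3 (25%) higher, where 23.0% and 21.9% of all tested genes and 30.5% and 25.3% of protein-coding ones were. The median was -0.59, beside 0.01 and -0.04. For BE(2)-C, 7 (46.7%) were lower and 3 (20.0%) higher, against 14.8% and 13.3% of all tested genes and 19.9% and 15.5% of protein-coding ones. The median there was -0.18, beside 0.02 and -0.01. The higher count in BE(2)-C was 1 without any 1 of the siI1 libraries or at a threshold of 0.01. SRF, a transcription factor of cytoskeletal genes, fell in both lines, from 21.9 to 8.48 FPKM and from 19.3 to 12.01 FPKM (log2 -1.36 and -0.68). SIRT1, a protein deacetylase, fell likewise (log2 -1.13 and -0.62). IGF2, the growth factor mRNA that gave the family its name, rose from 50.9 to 263.6 FPKM in Hep-G2 (log2 2.37, SE 0.067). Its rise in BE(2)-C was smaller (log2 0.32, adjusted p = 0.032 from limma), and the difference was 2.05. That smaller rise lost its call without replicate 2 or 3 of siC or any 1 of the siI1 libraries, with adjusted p from 0.010 to 0.094 over all alternatives in limma.

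Of 16 ribonucleoprotein partners, 13 were tested in Hep-G2, where 6 (46.2%) were lower and 2 (15.4%) higher, beside 23.0% and 21.9% of all tested genes and 30.5% and 25.3% of protein-coding ones. The median was -0.14, beside 0.01 and -0.04. All 16 were tested in BE(2)-C, with 2 (12.5%) lower and 2 higher, near the 14.8% and 13.3% of all tested genes and below the 19.9% and 15.5% of protein-coding ones, and a median of 0.04 beside 0.02 and -0.01. The lower count in Hep-G2 was 2 with median centring, without replicate 1 of siC or at a threshold of 0.01, and 3 without replicate 3 of siI1. It was 9 with equal sums and 8 without replicate 1 of siI1, and the higher count was 1 with equal sums. All tested genes moved with these settings, 18.9% being lower with median centring, 30.0% with equal sums and 25.6% without replicate 1 of siI1. The higher count in BE(2)-C was 1 with no filter, with no trend, at a threshold of 0.01, without replicate 3 of siC or without any 1 of the siI1 libraries. SYNCRIP fell in Hep-G2 (log2 -0.89), G3BP2 fell in both lines (log2 -0.68 and -0.28), and PABPC1, the poly-A binding protein, rose in both (log2 0.44 and 0.59, the first 0.27 with equal sums). MATR3, 1 of the 6 lower in Hep-G2, was at 0.42 and 0.21 FPKM (log2 -0.76, adjusted p = 0.048 from limma). It lost its call without any 1 of the siC libraries or replicate 2 or 3 of siI1, with adjusted p up to 0.13 in limma, and its log2 fold change ran from -0.99 to -0.23 over all alternatives.

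Of 9 other oncofetal genes, 7 were tested in Hep-G2, and 8 were tested in BE(2)-C. In Hep-G2, 1 (14.3%) was lower and 5 (71.4%) higher, beside 23.0% and 21.9% of all tested genes and 30.5% and 25.3% of protein-coding ones. The median was 0.56, beside 0.01 and -0.04. The higher count was 4 or 5 under every alternative. AFP, the fetal serum protein, fell from 1563 to 1040 FPKM (log2 -0.59), while CLDN6, a tight junction protein, rose from 128.7 to 250.3 FPKM (log2 0.95). Without replicate 1 of siI1, 2 were lower. For BE(2)-C, 0 were lower and 3 (37.5%) higher, beside 14.8% and 13.3% of all tested genes and 19.9% and 15.5% of protein-coding ones. Among these 3 is GPC3, with means in BE(2)-C of 0.092 FPKM (siC) and 0.49 FPKM (siI1). Its siC libraries alone could not pass the filter of 0.1 FPKM, so its test is not used. The count and the median of BE(2)-C still include it, and its adjusted p reached 0.062 in limma over the alternatives. The median there was 0.13, beside 0.02 and -0.01. The higher count was 1 without replicate 1 of siI1 or at a threshold of 0.01. PEG10, an imprinted gene of retroelement origin, rose in both lines (log2 0.69 and 0.87).

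**Figure D5:**
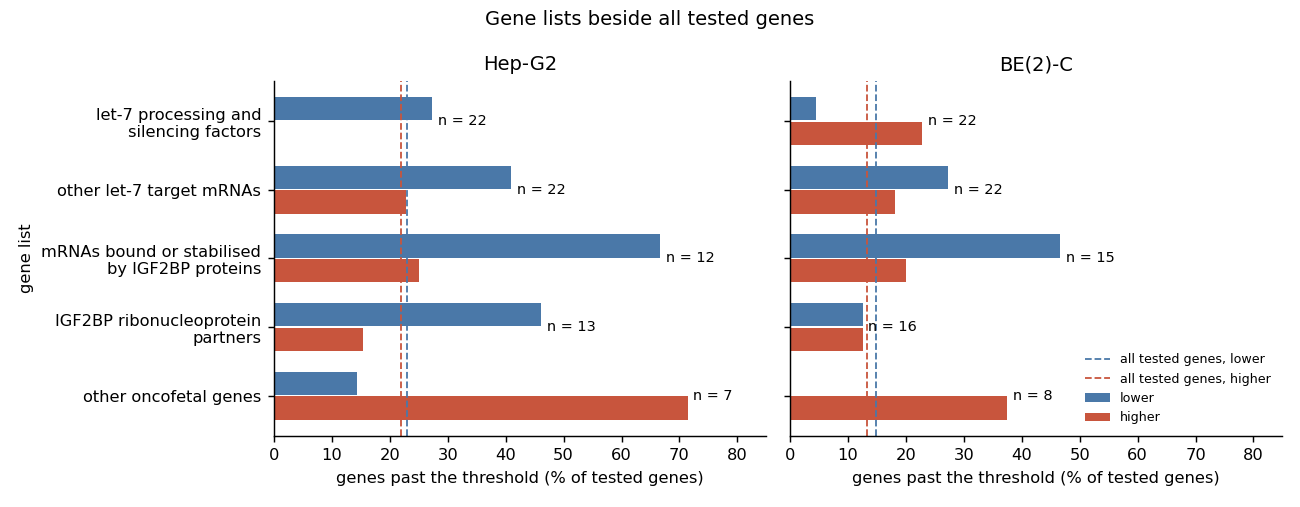
Percent of tested genes of each list that were lower (blue) or higher (red) with siI1 at an adjusted p under 0.05 from limma, with n tested beside the bars and the percent over all tested genes as dashed lines. The list of mRNAs bound or stabilised by IGF2BP proteins has 8 of 12 lower for Hep-G2 and 7 of 15 lower for BE(2)-C.

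The cell markers also moved with the siRNA. The summed hepatocyte markers were at 7825 FPKM in Hep-G2 siC and 14044 FPKM in siI1, with 6 of the 9 higher by mean (ALB, APOA1, TF, SERPINA1, FGB and HNF4A) and AFP, APOB and TTR lower. The summed sympathoadrenal markers in BE(2)-C were at 1357 and 1140 FPKM, a list that was split. By mean 5 were lower, led by HAND2 (285.3 and 171.4 FPKM), and 4 higher, STMN2 (176.6 and 264.6 FPKM), TH, ISL1 and GATA3. The 5 fibroblast markers summed to 27.7 and 36.3 FPKM in BE(2)-C. LUM went from 6.36 to 13.5 FPKM and DCN from 3.85 to 6.12 FPKM, while the most abundant, PDGFRB, was at 16.6 and 15.4 FPKM. The 3 leukocyte markers summed to 0.773 and 2.24 FPKM (Hep-G2) and to 1.89 and 0.806 FPKM (BE(2)-C), nearly all from CD14, and PTPRC was at or near 0. The 3 endothelial markers stayed below 0.24 FPKM. Their part in the changes above was not tested, and fewer cells of a type cannot be told apart from less RNA per cell.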

How the data were processed

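Per the labels, poly-A RNA was sequenced from strand-specific libraries. The authors clipped reads with cutadapt 1.14, aligned them to hg38 with HISAT2 2.1.0, counted them per gene with featureCounts 1.5.3 and tested each line with edgeR 3.30.3. The authors deposited a table for each line with an FPKM value per library, which the header does not name as such. Divided by a factor for each library, FPKM times gene length fell on whole reads, within 0.01 read, for 100% of nonzero values. The tables' columns with the authors' log fold change, p-value and FDR were not used.

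Genes with at least 0.1 FPKM in at least 3 libraries of a line were tested on log2(FPKM + 0.1) with limma 3.58.1 in R 4.3.3, with trend, two-sided and with Benjamini-Hochberg adjustment over all tested genes at 0.05. Tried on simulated data, the test missed part of the smaller changes, and false calls in the BE(2)-C simulation were above the nominal share. The mark set for recovery was limited to the larger changes after the smaller ones missed it. The simulation changed far fewer genes than were called here, none of them at low reads, so its false share does not carry over to these data. The difference between lines was an interaction contrast. Seed matches used GENCODE 44 on hg38, whereas gene lengths are those of the authors' annotation. Python 3.11.15, NumPy 2.4.6, pandas 2.3.3 and Matplotlib 3.10.9 were used.

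Named genes are the 7 members, related rows, up to 3 called genes per list, direction and line, and the 5 nearest patterns; not every gene taken by the rule is reported here. Members and lists were chosen with earlier results of these data known. Alternatives covered the pseudocount, filter, trend, scaling, replicate block, left-out libraries, threshold, transcript and the length used for levels.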

Additional observations from a re-analysis of the deposited data

Results flagged for a closer look

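Among the 4 genes tested in both lines, 3 had effects of the siRNA that differed between Hep-G2 and BE(2)-C in limma's interaction contrast. So did 40.2% of all genes tested in both lines and 49.9% of the protein-coding ones, so nothing is read from this count alone. The difference, Hep-G2 minus BE(2)-C on the log2 scale, was -1.52 for LIN28B, -0.78 for HMGA1 and -0.45 for IGF2BP3. LIN28B was lower with siI1 in 3 of 3 Hep-G2 libraries than in any siC library, and overlapped with siC in BE(2)-C. HMGA1 was lower in 3 of 3 libraries of both lines. IGF2BP3 was higher in 3 of 3 BE(2)-C libraries and overlapped in Hep-G2.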

How the results depend on the processing

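Of 234 values for the tested members under the alternatives, 222 kept their direction and their side of the threshold. These values cover IGF2BP2 and HMGA2 in Hep-G2 alone and do not cover LIN28A, which was not tested. The calls of IGF2BP1, LIN28B, HMGA1 and HMGA2 in Hep-G2, of IGF2BP1 and IGF2BP3 in BE(2)-C and of the 3 differences held under every alternative run. HMGA1 in BE(2)-C (-0.27) lost its call with no filter (adjusted p = 0.051 from limma), with no trend (adjusted p = 0.073 from limma) and at a threshold of 0.01. Leaving out single libraries gave it -0.31 to -0.20, and IGF2BP3 in Hep-G2 -0.21 to -0.044. IGF2BP2 in Hep-G2 ran from -0.31 with equal sums of FPKM to -0.048 with median centring, and from -0.17 to -0.084 without single libraries. LIN28B in BE(2)-C ran from 0.043 to 0.20 without single libraries. The difference for IGF2BP1, uncalled throughout, turned to -0.083 with a pseudocount of 1 and -0.17 with equal sums, and ran from -0.064 to 0.056 without single libraries.

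Equal sums moved the median of all Hep-G2 genes from 0.01 to -0.15 and the share of calls that were higher from 48.8% to 35.5%, and median centring gave 0.10 and 58.0%. Relative to these medians the falls of LIN28B, HMGA1 and HMGA2 remained falls. A threshold of 0.01 left 2727 higher genes for Hep-G2. For BE(2)-C it left 1475 lower and 1139 higher genes, and 2172 genes had the lower effect in Hep-G2. Leaving out single libraries gave 1519 to 2103 higher genes in BE(2)-C, below the 2489 with all, with fewer samples in the fit. In Hep-G2, leaving out replicate 1 of siI1 gave 4973 lower and 4574 higher genes, above the 4463 and 4250 with all. Every other left-out Hep-G2 library gave fewer of both.

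The replicate numbers did not pair the libraries, since deviations of same-numbered libraries correlated at -0.01 to 0.06. The fit with the replicate block called 4502 lower and 4318 higher genes for Hep-G2. It called 2531 and 2141 for BE(2)-C, and no call of the 7 genes changed.

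Of uncalled genes named by rule, LARP4 ran from -0.0076 to 0.12 and HSPA13 from -0.028 to 0.068 in BE(2)-C without single libraries. MIRLET7F1 in Hep-G2 ran from -1.48 to 0.79 and MIRLET7D in BE(2)-C from -0.32 to 0.52, on few reads. Of 300 list counts, 33 moved by over 1.5 times, all from small counts. LIN28B had 1 seed match after its longest coding sequence, and HMGA2 had 4 in the MANE Select 3'UTR, which was added after seeing the data. Rescaling FPKM to the MANE Select length, also added later, gave IGF2BP sums of 108.6 (siC) and 65.2 (siI1) for Hep-G2, with 46.4% and 17.95% from IGF2BP1. The BE(2)-C sums were 39.1 and 26.7, with 56.2% and 18.7% from IGF2BP1, since IGF2BP3 is divided by a shorter length. Apart from this rescaling, the cause of these changes was not tested. Low read numbers limit the related rows.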
